A study of Arabidopsis thaliana with 12 samples.

Results

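The tandem cluster of hybrid proline-rich protein genes on Arabidopsis chromosome 4 runs from AZI1 (AT4G12470) to AIR1 (AT4G12550). Its 9 members were taken by locus code from the authors' expression tables, which list 33557 genes. The cluster was selected on the FPKM of AIR1 and AT4G12545, which were much higher in sfps-2 than in wild type after red light, so values of that comparison are given as a description and without a test. RNA was sequenced from whole seedlings of sfps-2, labelled a knockout of SFPS, and of wild type, both in the Col-0 background. Seeds of both genotypes were chilled, given 3 h of white light to start germination and grown in the dark on medium without sucrose to an age of 4 days. The 4 groups are sfps-2 after 3 h of continuous red light (fluence rate 7 umol per m2 and s), wild type after the same red light, sfps-2 after a further 3 h in the dark, and wild type after a further 3 h in the dark. Each group has 3 libraries, 12 in all, and the labels do not say whether they came from separate cultures.

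Hybrid proline-rich proteins are secreted proteins that join a proline-rich stretch to a cysteine-rich domain of the lipid transfer protein type, and many are found at the cell wall. AZI1 is known for priming plants for systemic acquired resistance in response to azelaic acid, and EARLI1 is its close relative, first described as aluminium-induced and also linked to cold responses. AIR1 was isolated as a gene induced by auxin in cultured roots that were forming lateral roots. SFPS encodes a splicing factor that interacts with phytochrome B, a photoreceptor that red light activates.

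All 9 members have a single exon. They lie within 38719 bp of chromosome 4 in the RefSeq annotation of TAIR10.1, with gaps of 2112 to 6005 bp between neighbours. AT4G12545 (chr4:7434199-7434858) and AIR1 (chr4:7439115-7439805), at one end, are on the plus strand. The other 7 members are on the minus strand, from AZI1 (chr4:7401087-7401951) and EARLI1 (chr4:7406065-7406994) through AT4G12490, AT4G12500, AT4G12510 and AT4G12520 to AT4G12530 (chr4:7427834-7428563). A gene with introns, AT4G12540, lies inside the span and is not a member. The 2 plus-strand genes are also the 2 on which the cluster was selected.

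Coding sequences of the 36 pairs of members were 40.0% to 99.5% identical, with a median of 55.2%. AT4G12510 and AT4G12520 were 99.5% identical, AIR1 and AT4G12545 93.2%, AT4G12490 and AT4G12500 90.3%, and AZI1 and EARLI1 84.1%. AIR1 and AZI1, at opposite ends of the cluster, were 51.4% identical. The close pairs limit how reads can be assigned. Of the 50-base windows of the transcript, 51.8% of those in AT4G12510 and 58.1% of those in AT4G12520 also occur elsewhere in the genome, against 11.4% in AIR1 and 11.9% in AT4G12545. At 100 bases the shares were 48.4% and 55.5% for AT4G12510 and AT4G12520 and 0% for the other 7 members. The read length is not given in the sources used here, and the split of reads between AT4G12510 and AT4G12520 is therefore uncertain.

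**Figure D1:**
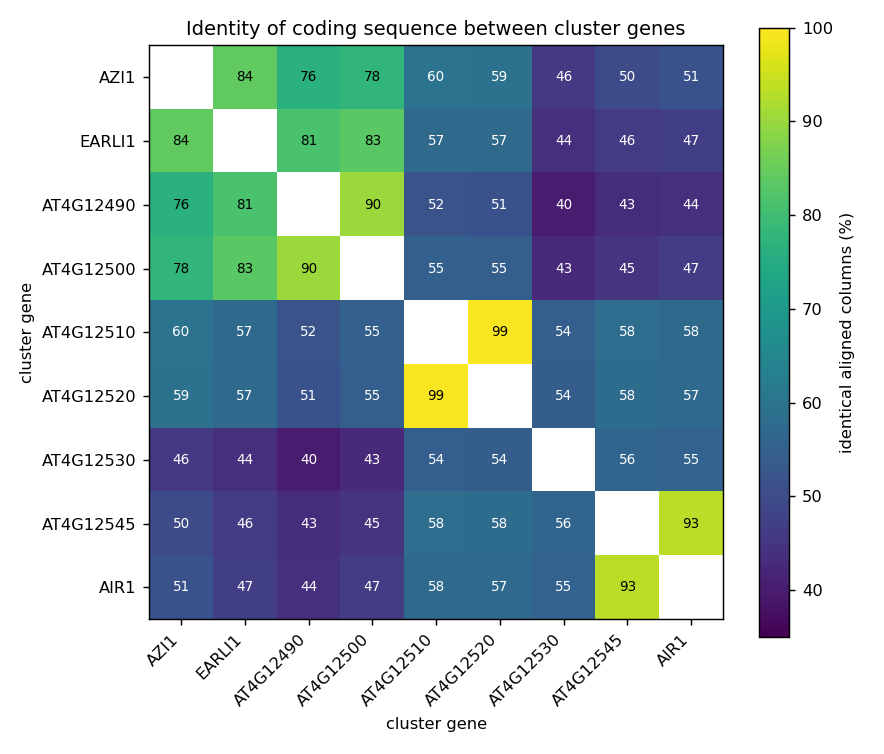
Percentage of identical aligned columns between the coding sequences of each pair of cluster genes, in chromosomal order on both axes. AT4G12510 and AT4G12520 (99.5%) and AT4G12545 and AIR1 (93.2%) form close pairs, and AZI1, EARLI1, AT4G12490 and AT4G12500 form a block.

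Annotated genes on the opposite strand overlap 4 members. AT4G12555 covers 92.9% of AIR1 and AT4G12543 covers 67.3% of AT4G12545. AT4G12495 covers 35.9% of AT4G12490 and AT4G12485 covers 3.44% of EARLI1. The authors' tables list none of these 4 overlapping genes. The library kit keeps the strand, but the strand setting used in counting is not given in the sources used here, so reads of AIR1 and AT4G12545 cannot be told apart from reads of their opposite-strand partners.

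The 250 bases before the annotated start are shown for AIR1 and AT4G12545, which moved together, and for AZI1, which moved the other way. They are from the RefSeq genome TAIR10.1, 5′ to 3′ on the strand of the gene. Capitals mark TTGAC, the core of the W-box bound by WRKY factors, on either strand (GTCAA on the printed strand where it lies on the opposite one).
AIR1 promoter, chr4:7438865-7439114, plus strand: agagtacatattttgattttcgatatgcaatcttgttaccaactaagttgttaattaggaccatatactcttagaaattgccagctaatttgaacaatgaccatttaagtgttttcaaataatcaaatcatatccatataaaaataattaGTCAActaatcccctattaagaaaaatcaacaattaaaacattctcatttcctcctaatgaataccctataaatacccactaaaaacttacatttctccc
AT4G12545 promoter, chr4:7433949-7434198, plus strand: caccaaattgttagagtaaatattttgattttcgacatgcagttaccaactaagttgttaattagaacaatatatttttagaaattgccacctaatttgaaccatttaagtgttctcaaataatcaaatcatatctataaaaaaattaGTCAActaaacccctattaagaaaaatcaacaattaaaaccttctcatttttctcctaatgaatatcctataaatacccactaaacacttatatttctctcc
AZI1 promoter, chr4:7401952-7402201, minus strand: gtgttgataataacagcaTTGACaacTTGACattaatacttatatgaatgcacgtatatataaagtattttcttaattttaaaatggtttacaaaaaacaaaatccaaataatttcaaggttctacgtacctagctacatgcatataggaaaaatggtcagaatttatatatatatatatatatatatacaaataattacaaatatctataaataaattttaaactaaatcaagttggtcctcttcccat

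Aligned end to end, the AIR1 and AT4G12545 stretches were 84.1% identical, the highest of the 36 pairs, against a median of 50.6%. The lowest value, 46.2%, was that of AT4G12510 and AT4G12520. The windows of that pair hold a long, nearly identical stretch at shifted positions. Gap columns count as not identical, so these values and their ranking depend on where the annotated starts lie. TTGAC lies on the opposite strand in AIR1 and AT4G12545. The first printed base of GTCAA is 100 bp before the start of AIR1 and 102 bp before that of AT4G12545. In AZI1 it lies on the strand of the gene, 232 and 224 bp before the start. It was found in 6 of the 9 members, and 44.9% of 27443 promoters of the same length hold it. AT4G12510, AT4G12520 and AT4G12530 hold none. The auxin response elements TGTCTC and TGTCGG and the G-box CACGTG, each searched on both strands, were found in 0 of the 9 members, against 10.9%, 4.16% and 6.49% of all promoters. These counts describe letters in the window and do not show binding.

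Expression is given as FPKM, the number of fragments scaled for transcript length and sequencing depth, which lets levels of different genes be compared. The authors pooled the 3 libraries of a group into a single FPKM, so no spread over libraries can be given and the depth is unknown. Log2 changes were computed here from these values. The error beside a log2 change is the one implied by the authors' test statistic (log2 change divided by the statistic), and it need not match their p-values. Genes with a q below 0.05 in the authors' tables and a difference of 1.5-fold or more, a fold set here, are referred to as called. SFPS itself was at 1.93 FPKM in sfps-2 against 7.90 FPKM in wild type after red light, and at 1.83 FPKM in sfps-2 against 8.04 FPKM in wild type in the dark. In junction reads of 31 genes called higher in sfps-2 in the dark, replicate 2 of sfps-2 in the dark was below 50% of both other libraries in 7 genes, against 0 and 2 for its partners, and values without it cannot be had from pooled tables.

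After red light AIR1 was at 2569.7 FPKM in sfps-2, against 175 FPKM in wild type. It ranked 24th of 33557 genes by FPKM in sfps-2 and 810th in wild type. In the dark AIR1 was at 582 FPKM in sfps-2, rank 161, against 416 FPKM in wild type, rank 270. The order of the 4 groups was sfps-2 red light, sfps-2 dark, wild type dark, wild type red light, so red light and dark stand in opposite order in the 2 genotypes. Red light and dark levels in this order come from separate tables, whose values of a group differ slightly, and the tables of the light response within a genotype, given further on, show the same directions.

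AT4G12545, the member closest to AIR1 in coding sequence, followed the same order at a lower level. It was at 514 FPKM in sfps-2 and 48.0 FPKM in wild type after red light, and at 124 FPKM in sfps-2 and 88.6 FPKM in wild type in the dark. The ratio of AIR1 to AT4G12545 was 5.00 in sfps-2 and 3.65 in wild type after red light, and 4.69 in both genotypes in the dark.

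AT4G12510 and AT4G12520, the near-identical pair, were also abundant, and AT4G12520 exceeded AT4G12545 in every group except sfps-2 after red light. AT4G12520 was at 57.8 FPKM in sfps-2 and 92.9 FPKM in wild type after red light, and at 235 FPKM in sfps-2 and 274 FPKM in wild type in the dark. AT4G12510 was at 22.2 FPKM in sfps-2 and 28.4 FPKM in wild type after red light, and at 72.8 FPKM in sfps-2 and 62.6 FPKM in wild type in the dark. Both were lower after red light than in the dark in both genotypes.

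AZI1 was at 12.6 FPKM in sfps-2 and 40.2 FPKM in wild type after red light, and at 20.7 FPKM in sfps-2 and 25.9 FPKM in wild type in the dark. Its highest group, wild type after red light, was the lowest group of AIR1. EARLI1 was under 1 FPKM in all 4 groups, at 0.785 FPKM in sfps-2 and 0.821 FPKM in wild type after red light, and at 0.305 FPKM in sfps-2 and 0.280 FPKM in wild type in the dark. AT4G12530 ranged between 0.227 and 0.392 FPKM. AT4G12490 was listed at 0 in 3 groups and at 0.0391 FPKM in sfps-2 after red light, and AT4G12500 was listed at 0 in sfps-2 after red light and in wild type in the dark, and never exceeded 0.0430 FPKM in the comparisons of genotypes.

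**Figure D2:**
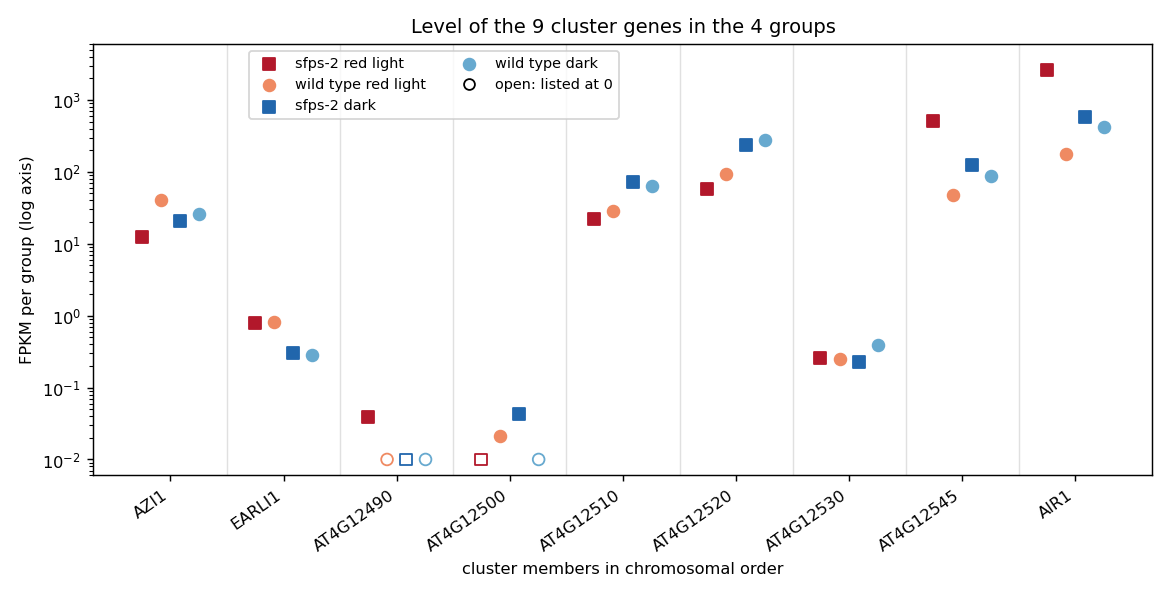
FPKM of the 9 cluster genes (log axis) in sfps-2 and wild type after red light and in the dark, 1 pooled value per group from the 2 comparisons of genotypes, with open symbols for values listed at 0. AIR1 and AT4G12545 are highest in sfps-2 after red light (2569.7 and 514 FPKM), and AZI1 is highest in wild type after red light (40.2 FPKM).

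The summed FPKM of the 9 members was 3178 in sfps-2 and 386 in wild type after red light, and 1035 in sfps-2 and 867 in wild type in the dark. AIR1 and AT4G12545 made up 97.1% of that sum in sfps-2 after red light, against 57.9% in wild type. In the dark they made up 68.2% in sfps-2 and 58.1% in wild type. AT4G12510 and AT4G12520 made up 2.52% in sfps-2 and 31.4% in wild type after red light, and 29.7% in sfps-2 and 38.8% in wild type in the dark. In whole seedlings, a change in the number of cells of a type and a change in RNA per cell cannot be told apart.

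The comparison of the genotypes in the dark uses no red light library and is therefore separate from the one that led to the choice of the cluster. The authors tested 7 of the 9 members, and 0 were called in either direction. Over all 20698 genes tested, sfps-2 had 5.22% called higher and 1.99% called lower. AIR1 had a log2 change of 0.49 (SE 0.28), 1.40-fold, with a q of 0.0370 in the authors' deposited table, below the threshold for q but also below the fold required. AT4G12545 had the same log2 change of 0.49 (SE 0.28), with a q of 0.0505 in the authors' deposited table. AZI1 had a log2 change of -0.32 (SE 0.32) with a q of 0.322 in the authors' deposited table. The q values of AT4G12510, AT4G12520, EARLI1 and AT4G12530 in the authors' deposited table were between 0.399 and 0.960. AT4G12490 and AT4G12500 were not tested. The median log2 change of the 7 tested members was 0.12, against 0.04 over all tested genes.

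After red light, the comparison on which the cluster was chosen, AIR1 was 14.7-fold higher in sfps-2 than in wild type, a log2 change of 3.87 (SE 0.40). AT4G12545 was 10.7-fold higher, a log2 change of 3.42 (SE 0.32). By log2 change they ranked 42nd and 60th of 20867 tested genes. AZI1 differed the other way, with a log2 change of -1.67 (SE 0.38), the 172nd lowest. AT4G12520 had a log2 change of -0.68 (SE 0.28), AT4G12510 of -0.35 (SE 0.36) and EARLI1 of -0.06 (SE 0.81). AIR1 and AT4G12545 were called higher and AZI1 and AT4G12520 lower, 2 and 2 of the 6 tested members. Of all tested genes, 3.28% were called higher and 3.23% lower. The 2 called higher are those on which the cluster was selected, so these counts are a description and no support. The median over the 6 was -0.21, against -0.02 over all tested genes.

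Genes beyond both ends of the cluster were then compared. Of the 8 genes listed on each side, 12 were tested by the authors and 0 of them were called between genotypes in the dark or after red light. The overall shares, 3.28% higher and 3.23% lower after red light and 5.22% and 1.99% in the dark, would give few or no calls among 12 genes. The same was true of AT4G12540, inside the span. Among the 12, only AT4G12600 was called for light, at 46.4 FPKM after red light and 30.6 FPKM in the dark in sfps-2, with a log2 change of 0.60 and a q of 0.00595 in the authors' deposited table. Of all tested genes, 12.4% were called higher and 8.97% lower with light in sfps-2. In wild type the shares were 14.9% higher and 5.85% lower.

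**Figure D3:**
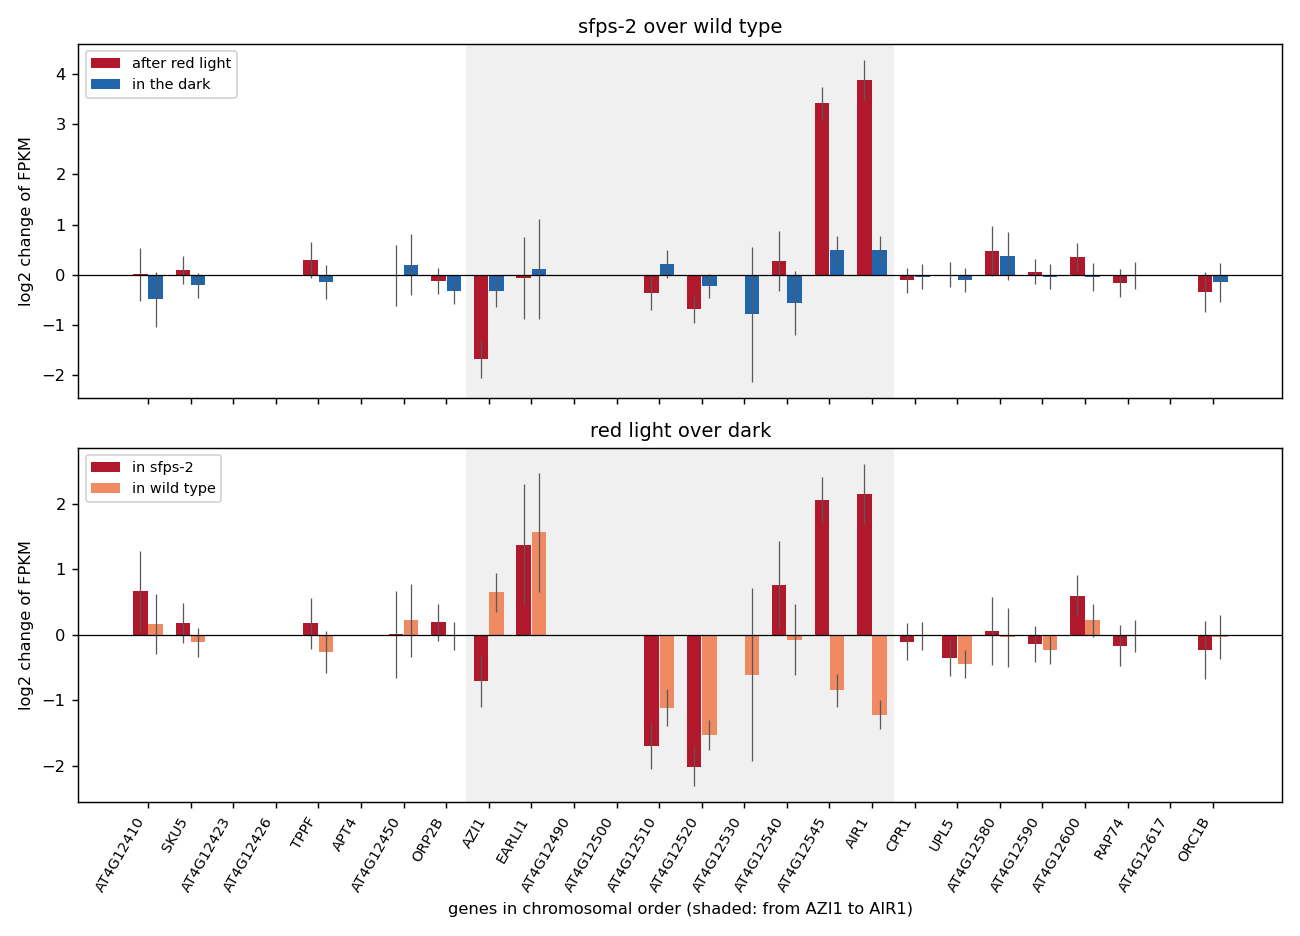
Log2 change of FPKM for the cluster genes (shaded, with AT4G12540) and 8 genes on each side in chromosomal order, for sfps-2 over wild type (top) and red light over dark (bottom); bars are drawn where the authors tested the gene and error lines are the SE implied by their statistic. AIR1 and AT4G12545 reach 3.87 and 3.42 in sfps-2 over wild type after red light, and AZI1 reaches -1.67.

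Red light effects are described next within each genotype. The red light libraries are those of the comparison that led to the choice of the cluster, so the q values below come from the authors' deposited table and are no independent support. In wild type, AIR1 was at 174 FPKM after red light, against 405 FPKM in the dark. Its log2 change was -1.22 (SE 0.22), with a q of 2.92e-04 in the authors' deposited table. AT4G12545 was at 47.6 FPKM after red light against 85.7 FPKM in the dark, a log2 change of -0.85 (SE 0.25). AT4G12520 was at 92.1 FPKM after red light against 266 FPKM in the dark, a log2 change of -1.53 (SE 0.22), and AT4G12510 was at 28.1 FPKM against 60.8 FPKM, a log2 change of -1.11 (SE 0.28). All 4 of these genes were called lower.

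AZI1 and EARLI1 went the other way in wild type. AZI1 was at 39.5 FPKM after red light and 25.2 FPKM in the dark, a log2 change of 0.65 (SE 0.30), with a q of 0.00106 in the authors' deposited table. EARLI1 was at 0.809 FPKM after red light and 0.274 FPKM in the dark, a log2 change of 1.56 (SE 0.91), with a q of 0.0307 in the authors' deposited table. Of 7 members tested in wild type, 2 were thus called higher and 4 lower, against 14.9% higher and 5.85% lower over all tested genes. The remaining tested member, AT4G12530, had a log2 change of -0.61 (SE 1.32). The median over the 7 was -0.85, against 0.01 over all tested genes.

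In sfps-2, AIR1 was at 2616 FPKM after red light, against 594 FPKM in the dark. Its log2 change was 2.14 (SE 0.46), with a q of 3.82e-04 in the authors' deposited table. AT4G12545 was at 524 FPKM after red light against 127 FPKM in the dark, a log2 change of 2.05 (SE 0.35). AT4G12520 and AT4G12510 were lower after red light, as in wild type. AT4G12520 was at 59.1 FPKM after red light against 238 FPKM in the dark, a log2 change of -2.01 (SE 0.30), and AT4G12510 was at 22.7 FPKM against 73.9 FPKM, a log2 change of -1.70 (SE 0.35).

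AZI1 was at 12.8 FPKM after red light and 21.0 FPKM in the dark in sfps-2, a log2 change of -0.71 (SE 0.39), with a q of 0.0128 in the authors' deposited table. EARLI1 had a log2 change of 1.37 (SE 0.93), with a q of 0.0937 in the authors' deposited table. Of 6 members tested in sfps-2, 2 were called higher and 3 lower, against 12.4% higher and 8.97% lower over all tested genes. The median over the 6 was 0.33, against -0.01 over all tested genes; it lies between members that moved in opposite directions.

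The light response in sfps-2 minus that in wild type was 3.36 on the log2 scale for AIR1 and 2.90 for AT4G12545, the 31st and 38th highest of 20453 genes tested in both. It was -1.36 for AZI1, the 630th lowest. It was -0.59 for AT4G12510, -0.48 for AT4G12520 and -0.19 for EARLI1, against a median of -0.04 over all genes. These differences contain the comparison that led to the choice of the cluster and were not tested. Among the 6 members tested in both genotypes, AIR1, AT4G12545 and AZI1 had light responses of opposite sign.

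**Figure D4:**
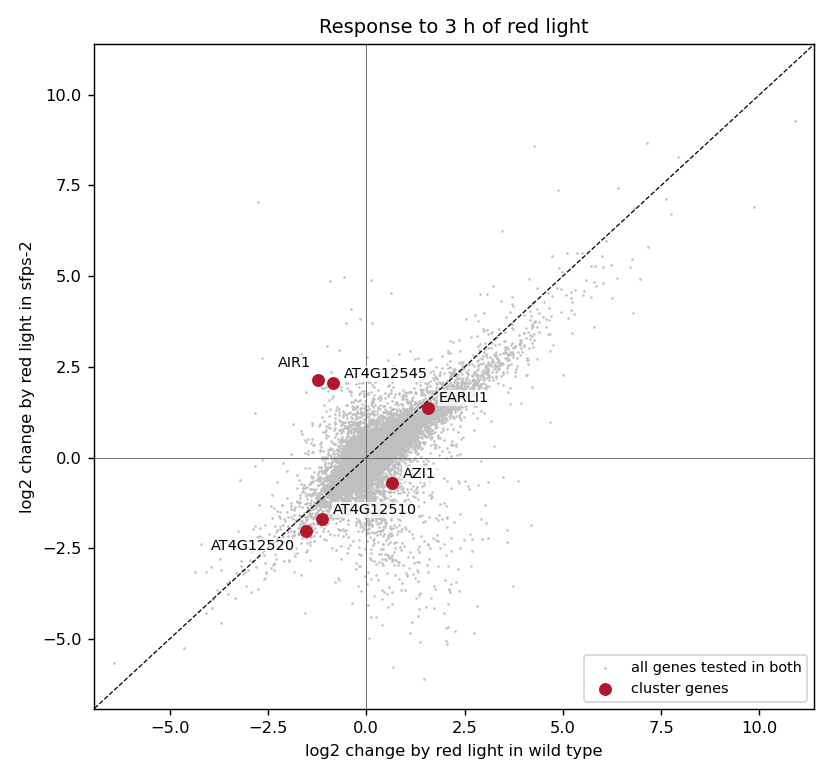
Log2 change by 3 h of red light in sfps-2 (vertical axis) against wild type (horizontal axis) for the genes tested in both (grey) and the 6 cluster genes among them (red), with a dashed line of equal response. AIR1 lies at 2.14 in sfps-2 and -1.22 in wild type and AT4G12545 at 2.05 and -0.85, while AT4G12510, AT4G12520 and EARLI1 lie nearer the dashed line.

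The authors' splicing lists hold events with a change of at least 3 points. They list 992 events for the genotypes after red light, 972 for the genotypes in the dark, 493 for light in sfps-2 and 816 for light in wild type. None of them lies in a cluster gene, all of which have a single exon. Events below the authors' thresholds were not analysed here.

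The genes with log2 changes most like those of AIR1 were sought over all 4 comparisons, which share groups, among 17767 genes with at least 1 FPKM in every group. That filter leaves out genes at a low level in 1 group, such as GH3.1 of the auxin-induced list below, at 0.710 FPKM in wild type after red light. The closest was AT3G29252, annotated as a pseudogene of the short-chain dehydrogenase/reductase family, at a distance of 0.49 on the log2 scale. It was at 37.3 FPKM in sfps-2 against 1.98 FPKM in wild type after red light. Its 4 changes had SEs of 0.76 to 1.09, larger than this distance, so its first place is uncertain. AT4G12545 followed at 0.59. AT4G15160, a hybrid proline-rich protein gene outside the cluster, came next at 0.98, with 43.8 FPKM in sfps-2 against 4.84 FPKM in wild type after red light. CYP705A30, a cytochrome P450 gene, lay at 1.22, AT2G19970, of the CAP superfamily, at 1.24, and AT5G42510, annotated as dirigent-like, at 1.76. The 4 changes are linked through the groups they share, so this likeness includes the values on which the cluster was selected.

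Other hybrid proline-rich and related cysteine-rich protein genes, 21 in all, were taken from elsewhere in the genome. This list and those that follow were made with earlier results of these data known, so their counts are a description. Of the 14 tested, sfps-2 had 4 called higher and 3 lower after red light, and 2 higher and 0 lower in the dark. Over all tested genes the shares were 3.28% higher and 3.23% lower after red light, and 5.22% higher and 1.99% lower in the dark. AT4G15160 had a log2 change of 3.18 after red light and AT4G22610 of 2.05, at 72.0 FPKM in sfps-2 against 17.4 FPKM in wild type, and AT4G22666 had 1.21. Those called lower were AT4G00165 at -0.78, AT4G22490 at -0.73 and AT5G46900 at -0.67. With light, 5 of the 14 were called higher and 1 lower in sfps-2, against 4 higher and 2 lower in wild type, beside overall shares of 12.4% higher and 8.97% lower for sfps-2, and 14.9% higher and 5.85% lower for wild type. The median log2 change after red light was 0.26 in the 14 genes and -0.02 over all tested genes.

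Auxin-induced and lateral root genes, the setting in which AIR1 was first described, formed a list of 21. It was made with earlier results of these data known, so its counts are a description, and a link to auxin was not tested. After red light sfps-2 had 7 of 21 tested genes called higher and 0 lower, against 3.28% and 3.23% of all tested genes, with a median of 0.48, against -0.02 over all tested genes. In the dark 0 of 19 were called higher and 1 lower, against 5.22% and 1.99% of all, with a median of -0.19, against 0.04 over all tested genes. MES17, a methyl esterase that acts on the methyl ester of auxin, had a log2 change of 3.51 after red light, GH3.3, an auxin-conjugating enzyme, 2.57, and LBD29, a transcription factor of lateral root formation, 2.18. LBD29 was the gene called lower in the dark, at -0.82. With light, 11 of 21 were called higher and 1 lower in sfps-2, against 1 higher and 7 lower in wild type. Over all tested genes 12.4% were higher and 8.97% lower in sfps-2, and 14.9% higher and 5.85% lower in wild type. GH3.3 was at 38.1 FPKM after red light and 39.8 FPKM in the dark in sfps-2, and at 6.23 FPKM after red light and 39.1 FPKM in the dark in wild type.

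Systemic acquired resistance and priming genes, the setting in which AZI1 is known, formed a list of 18. After red light 1 of 15 tested was called higher in sfps-2 and 3 lower, and in the dark 2 of 16 were higher and 0 lower. These small counts stand beside 3.28% higher and 3.23% lower of all tested genes after red light, and 5.22% and 1.99% in the dark. ALD1, an enzyme of pipecolic acid synthesis, was the one called higher, at 1.86 FPKM in sfps-2 against 0.245 FPKM in wild type. DIR1, a lipid transfer protein of systemic resistance, was at 211 FPKM in sfps-2 against 355 FPKM in wild type after red light, a log2 change of -0.75. The defence marker PR1 had -1.28 and the transcription factor CBP60G -1.01. In the dark CBP60G had 2.42 and was called higher, as was FMO1, an enzyme of N-hydroxypipecolic acid synthesis, at 8.88 FPKM in sfps-2 against 0.827 FPKM in wild type. With light, 5 of 16 were called higher and 2 lower in sfps-2, against 7 of 14 higher and 0 lower in wild type. Of all tested genes, 12.4% were called higher and 8.97% lower in sfps-2, against 14.9% higher and 5.85% lower in wild type.

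**Figure D5:**
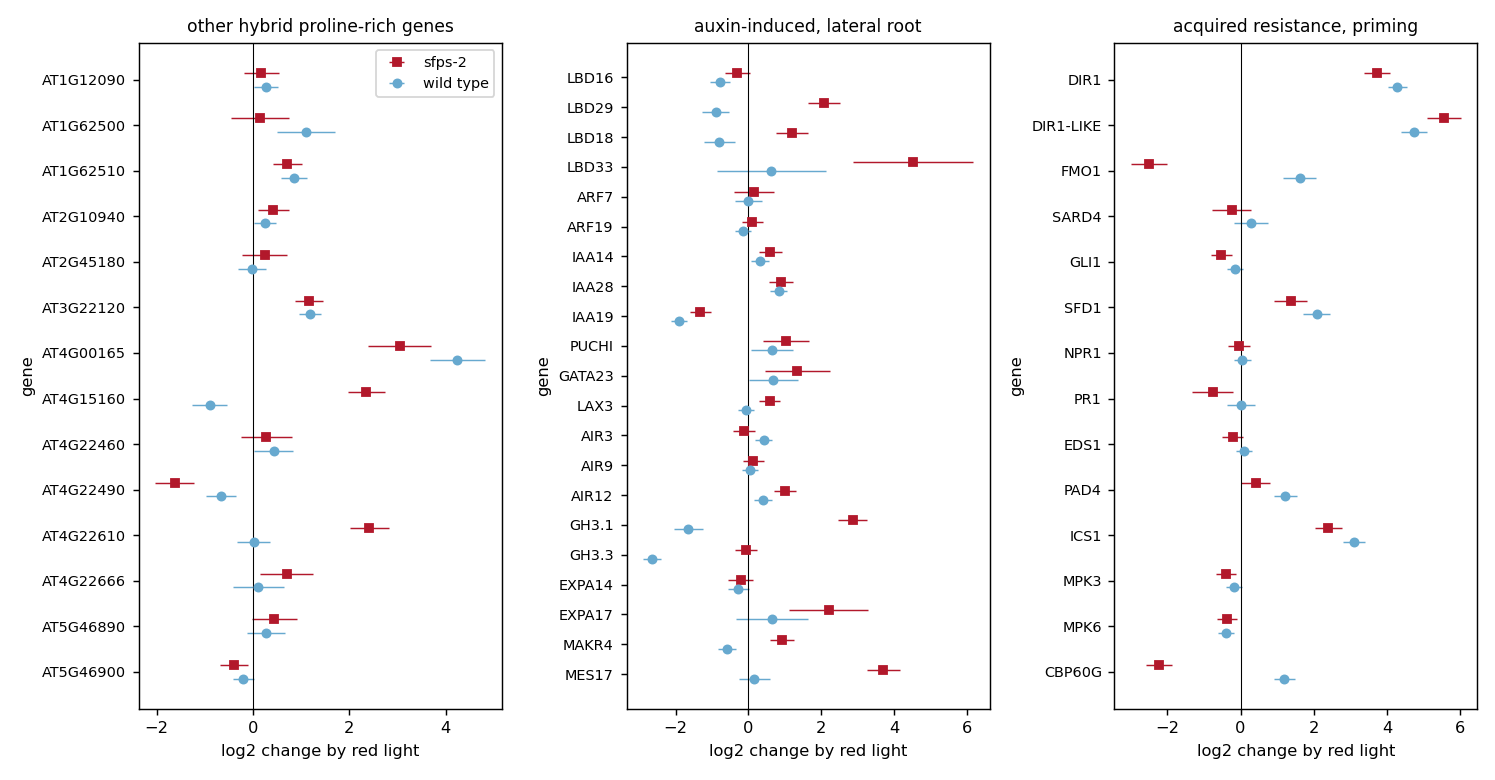
Log2 change by red light in sfps-2 (squares) and wild type (circles) for genes of 3 lists that were tested in both genotypes; error lines are the SE implied by the authors' statistic. AT4G15160, LBD29 and GH3.1 lie above 0 in sfps-2 and below 0 in wild type, as AIR1 does, and FMO1 and CBP60G lie below 0 in sfps-2 and above 0 in wild type, as AZI1 does.

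AIR1 was first found in roots, and 15 markers of root cells were set beside it. After red light 7 of 15 were higher and 0 lower in sfps-2 by these calls, against 3.28% and 3.23% of all tested genes, with a median log2 change of 0.62, against -0.02 over all tested genes. Their summed level was 321 FPKM in sfps-2 and 380.03 FPKM in wild type after red light, and 357 FPKM in sfps-2 and 436 FPKM in wild type in the dark, where 0 of 14 tested were called, against 5.22% higher and 1.99% lower of all tested genes. CASP1 and CASP2 hold most of this sum, at 162 and 65.1 FPKM in sfps-2 against 223 and 79.9 FPKM in wild type after red light. Neither was called. The 7 called higher after red light were PRP3, PRP1, RHS19, EXPA7, XTH14, PLT2 and RGF8. XTH14 was the most abundant of these, at 8.99 FPKM in sfps-2 after red light. PRP3, PRP1, PLT2 and RGF8 were under 1 FPKM in wild type after red light, and PLT2 was under it in sfps-2 too. GL2, MYB36, SCR, SHR and NAC015 had log2 changes from -0.16 to -0.02 and were not called. PLT1, at 0.62, was not called either. None of the 15 was listed at 0 in any group. With light, 7 of 15 were called higher and 0 lower in sfps-2, against 2 of 14 higher and 1 lower in wild type, where 14.9% and 5.85% of all tested genes were called. In sfps-2 the shares of all tested genes were 12.4% and 8.97%. The part of these cells in the AIR1 and AT4G12545 values was not tested.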

How the data were processed

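Libraries were made from total RNA depleted of ribosomal RNA with a stranded kit, per the labels' protocols. Reads were checked with FastQC, aligned with TopHat2 and quantified with Cufflinks on TAIR10, per the submitters' processing notes, which give no versions. The deposited tables hold FPKM per group, pooled by the authors over 3 libraries; values of a group differ slightly between tables, and changes were computed within a table. Each p-value, with a floor of 5e-05, and each q-value was computed by the authors with the Cufflinks tools over all genes they tested. The SE was derived from the deposited test statistic, treated as a score. Deposited counts of junction reads in listed splicing events served to compare libraries, and 150 other per-library columns were not used here. The labels' replicates cannot be compared in expression, because no value per library is given, and p-values may measure technical spread.

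Log2 changes, ranks and sums were computed with Python 3.11.15 and pandas 2.3.3. Genes were called at q under 0.05 and a fold of at least 1.5, and the calling step was tested on simulated data. Coordinates, promoters and coding sequences are RefSeq, TAIR10.1. Positions in the tables lay within the RefSeq gene in 86.2% of 26687 shared genes. Coding sequences were aligned globally with Biopython 1.88 in place of proteins, which were planned. The members and gene lists were chosen with earlier results of these data known. Named genes are the 9 members, up to 3 list members per direction with the largest change among called genes at 1 FPKM or more in each of both groups, the 6 genes nearest to AIR1 and called flanking genes. GH3.1, shown in a plot, FMO1, ALD1 and the root markers given by name were picked out after their values were seen. Alternatives varied the fold threshold, a filter at 1 FPKM, a pseudocount of 1 FPKM, the source table, centring on the median, and the promoter window.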

Additional observations from a re-analysis of the deposited data

How the results depend on the processing

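No paired analysis was possible because the expression tables hold 1 pooled value per group, and for the same reason no replicate could be left out. Leaving out replicates of junction reads was not run, since no cluster gene has a listed event. Of 167 values recomputed under an alternative, 160 stayed within their implied SE or, for counts, within 1.5 times the reported count, and 7 did not. Many of these alternatives could hardly move a value. The other source tables hold the same libraries, centring shifted values by at most 0.04, and single-exon genes had no listed splicing event under either cut. Within that SE, members under 1 FPKM still changed in size with log2(FPKM + 1): EARLI1 with light in sfps-2 was 1.37 and became 0.46, and AT4G12530 in the dark was -0.78 and became -0.18. With q alone and no fold threshold, 1 member (AIR1) instead of 0 counted as higher in sfps-2 in the dark. At a fold of at least 2, 1 member (AZI1) instead of 2 was lower in sfps-2 after red light, and 1 (EARLI1) instead of 2 was higher with light in wild type. That threshold also left 3 instead of 4 lower with light in wild type, without AT4G12545, and 2 instead of 3 in sfps-2, without AZI1. With at least 1 FPKM required in 1 of the groups, which drops EARLI1, 1 member (AZI1) instead of 2 was higher with light in wild type. The median light response of the tested members in sfps-2, 0.33, changed sign and became -0.10 with log2(FPKM + 1) and -0.71 with the filter at 1 FPKM, since it lies between members that moved apart. The light response of EARLI1 in wild type was 1.56 and became 0.51 with log2(FPKM + 1). Members under 1 FPKM and the split between AT4G12510 and AT4G12520 are the least certain values.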
